A study of Saccharomyces cerevisiae with 24 samples.

Results

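The genes described here encode proteins of the large subunit of the mitochondrial ribosome of budding yeast (Saccharomyces cerevisiae). They were taken by name: every gene with a standard name of MRPL and a number, together with IMG1, IMG2, MRP7, MRP20, MRP49, YML6 and RML2. That rule gave 41 genes of the 6562 in the table, and all 41 averaged at least 1 RPKM and entered the test. The rule uses no measured value, but it was set with earlier results of these data known. Names, coordinates (build R64) and family names such as uL2m or mL49 were read from a RefSeq annotation. By those family names 26 of the genes encode relatives of bacterial ribosomal proteins and 15 encode proteins special to mitochondrial ribosomes.

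Mitochondria carry their own ribosomes, which make the few proteins that the mitochondrial genome encodes, most of them core subunits of the respiratory chain and ATP synthase. The ribosomal RNAs of these ribosomes come from the mitochondrial genome, but almost all of their proteins are encoded in the nucleus, made in the cytosol and imported. The large subunit joins amino acids at its peptidyl transferase centre and passes the new chain out through an exit tunnel. In the yeast metabolic cycle, dense cultures held on limited glucose consume oxygen in synchronised bursts, and transcripts of different functions peak in different parts of each round.

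Strain CEN.PK, in minimal medium and cycling in this way, was sampled for RNA-seq at 12 times, which were 0, 20, 60, 110, 140, 180, 200, 210, 220, 230, 240 and 260 min. Each time had 1 library, so no value has a replicate and comparisons between single times have no test. All samples share the strain and the medium, and the labels name no mutant, drug or control culture. In RNA from a whole culture, fewer cells that express a gene and less of its RNA per cell cannot be told apart. RPKM here means reads per kilobase of gene scaled to library size, after the deposited signal was divided by an assumed read length of 50 bases. The estimated depth of a library was 4370000 to 5960000 reads, and a member's value rested on an estimated 85.1 to 2562 reads. The 10 genes with the highest levels took 6.69% to 18.5% of the summed RPKM of a library. With no replicates, every error and p-value below rests on how far the 12 libraries stray from a fitted curve, and says nothing of the spread between cultures.

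The mitochondrial large subunit genes were high in the same 4 libraries and low in the same 8. In all 41 genes, each of the libraries at 0, 20, 240 and 260 min was above every library from 60 to 230 min. Over all 6493 genes tested, 308 had this order, or 4.74%. This split of the libraries was read from these genes after their values were seen, so the count describes them and is no test. It was again 41 of 41 after median-ratio scaling and after quantile normalization of the libraries. In the median member the level was 250.3 RPKM (0 min) and 229 RPKM (20 min). It was 92.7 RPKM (60 min), 86.8 RPKM (110 min), 64.1 RPKM (140 min) and 67.9 RPKM (180 min). Later it was 83.7 RPKM (200 min), 79.6 RPKM (210 min), 65.4 RPKM (220 min) and 81.5 RPKM (230 min), and then 199.7 RPKM (240 min) and 321 RPKM (260 min). The spread between members was narrow beside this course, with an SD over the 41 genes of 0.33 (240 min) to 0.51 (20 min) on the log2(RPKM + 1) scale.

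**Figure D1:**
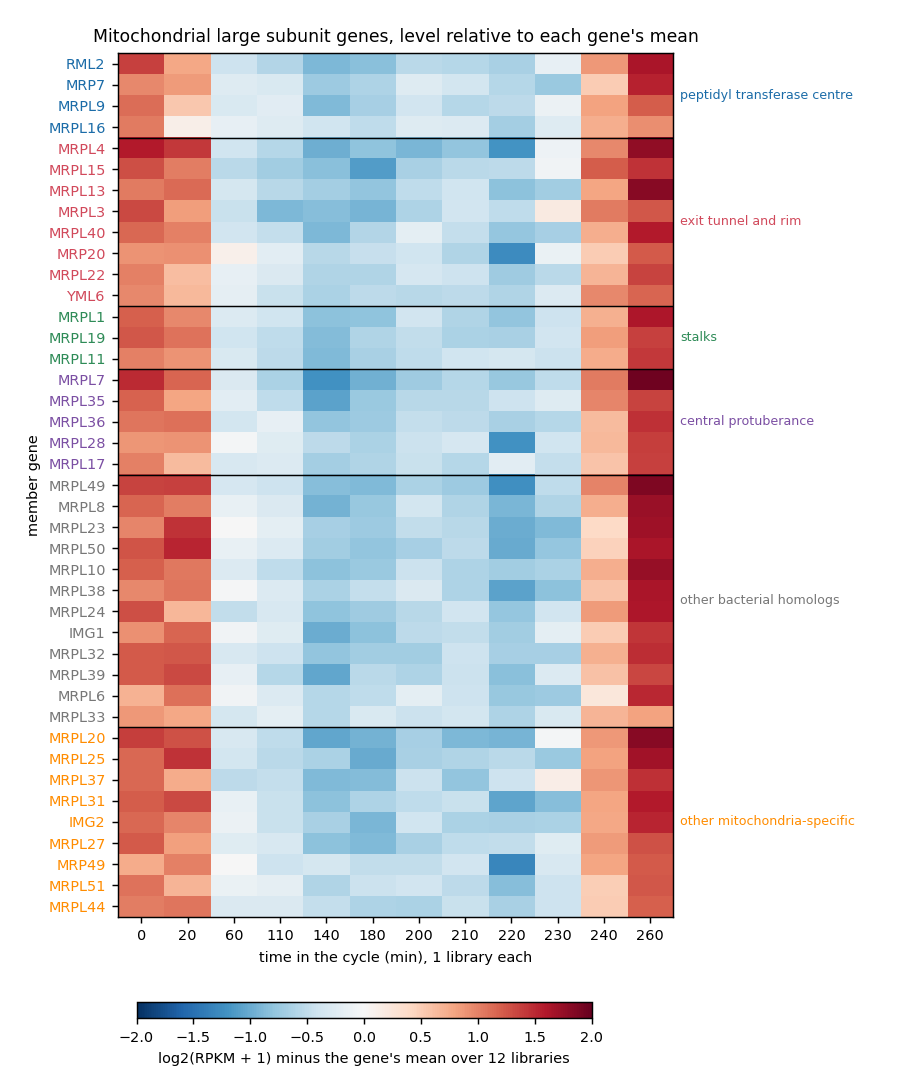
Heat map of the 41 mitochondrial large subunit genes (rows, grouped and coloured by place in the ribosome) in the 12 libraries (columns, time in min). Colour is log2(RPKM + 1) minus the gene's mean over the libraries, red above and blue below; the columns at 0, 20, 240 and 260 min are above the 8 others in all 41 rows.

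Each gene was tested for variation over time with a natural cubic spline of 4 degrees of freedom, fitted to log2(RPKM + 1) over all genes in limma, with Benjamini-Hochberg adjustment over all genes and a threshold of 0.05. All 41 members varied, against 20.7% of all genes tested. Their fitted range, taken from the lowest to the highest point of the curve at the sampled times on the log2(RPKM + 1) scale, had a median of 2.34 and ran from 1.44 to 3.06. The median over all genes tested was 1.10. An SE given with a range takes the times of the highest and lowest points as fixed, though they were picked from the same curve. All genes share the same libraries, and differences between the ranges of genes were not tested. The ratio of highest to lowest library was 2.82 for MRPL33, 5.46 for the median member and 9.16 for MRPL7. With 3 degrees of freedom, 29 of the 41 passed, where 145 of all genes did. Without the library at 260 min 29 of the 41 passed (828 of all genes), without 240 min 34 (277 of all genes), without 220 min 37 (283 of all genes) and without 230 min 37 (340 of all genes). The 13 members that lost the call in any setting were MRP7, MRP20, MRP49, MRPL6, MRPL16, MRPL22, MRPL23, MRPL28, MRPL31, MRPL33, MRPL38, MRPL40 and MRPL51. The other 28 passed in all of the settings tried.

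The proteins at and around the peptidyl transferase centre are RML2, MRPL9, MRPL16 and MRP7, all with bacterial relatives. RML2 (YEL050C, chromosome V, 59670 to 60851, uL2m) belongs to a family that every ribosome needs for peptide bond formation. It had 239.6, 158, 69.1, 61.0, 49.2, 51.4, 63.2, 61.5, 58.3, 81.7, 169.5 and 288 RPKM at the 12 times, in order from 0 to 260 min. The 4 libraries at 0, 20, 240 and 260 min were the high ones, and 140 min was the lowest. Its fitted range was 2.62 ± 0.29 (SE, limma adjusted p = 0.00415). MRP7 (YNL005C, chromosome XIV, 621313 to 622428, bL27m), whose bacterial relative reaches towards the catalytic site, had a fitted range of 2.12 ± 0.38 (SE, limma adjusted p = 0.00765). It stood at 449 RPKM (260 min) and 91.4 RPKM (230 min), its highest and lowest libraries, and it was the only member lowest at 230 min under the scaling as deposited. The call of MRP7 was lost without 220 min (limma adjusted p = 0.0513), 240 min (0.0532) or 260 min (0.0683), and with 3 degrees of freedom (0.0602) or 2 harmonics (0.0521). MRPL9 (uL3m) peaked with 275 RPKM (260 min), against its minimum of 63.5 RPKM (140 min).

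MRPL16 (YBL038W, chromosome II, 146187 to 146885, uL16m), whose family helps to place transfer RNA at the catalytic site, followed the others least closely. Over 0 to 260 min it had 232, 123, 101, 94.2, 85.5, 79.4, 93.9, 93.1, 69.8, 94.4, 187 and 217 RPKM. It was high at 0, 240 and 260 min, but its level at 20 min lay close above that at 60 min. Its correlation with the mean of the other 40 members, over the 12 libraries on the log2(RPKM + 1) scale, was 0.930, the lowest of the 41. At 20 against 0 min it differed by -0.91 on that scale, the lowest value of any member, where the median member differed by -0.14. The fitted range of MRPL16 was 1.53 ± 0.37 (SE, limma adjusted p = 0.0341). This call rested on the curve and on single libraries: it was lost with 3 degrees of freedom (limma adjusted p = 0.121), with 2 harmonics (0.0931), with the deposited fractions (0.0637) and without any 1 of the libraries from 180 to 260 min (0.0535 to 0.0876).

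The exit tunnel and its rim were followed with 8 genes. YML6 (YML025C, chromosome XIII, 224406 to 225365, uL4m) belongs to a family that lines the tunnel, and MRP20 (YDR405W, chromosome IV, 1277646 to 1278437, uL23m) to one that sits at its mouth, where the new chain comes out. YML6 peaked with 189.7 RPKM (260 min), against its minimum of 53.8 RPKM (140 min), with a fitted range of 1.98 ± 0.32 (SE, limma adjusted p = 0.0064). MRP20 had 291, 294, 167, 135, 106, 113, 118, 102, 64.5, 143, 222 and 368 RPKM over the 12 times. It was high at 0, 20, 240 and 260 min, and its library at 220 min was well below its neighbours. It differed by -0.66 at 220 against 210 min and by 1.14 at 230 against 220 min on the log2(RPKM + 1) scale, and 1.14 was the highest value of any member at that step. Its fitted range was 2.05 ± 0.40 (SE, limma adjusted p = 0.0113), and the call was lost without 240 min (limma adjusted p = 0.0518) or 260 min (0.0549) and with 3 degrees of freedom (0.0596).

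MRPL4 (YLR439W, chromosome XII, 1014491 to 1015450, uL29m), also at the rim, had 256, 228, 64.1, 56.5, 42.6, 47.9, 44.6, 48.8, 36.4, 78.6, 166 and 293 RPKM. The libraries at 0, 20, 240 and 260 min were its high ones, and 220 min was the lowest. The ratio of its highest to its lowest library was 8.05 and its fitted range was 2.92 ± 0.39 (SE, limma adjusted p = 0.00415), among the 3 widest. MRPL13 (YKR006C, chromosome XI, 450423 to 451217, mL50) and MRPL3 (YMR024W, chromosome XIII, 321875 to 323047, mL44) are mitochondria-specific proteins of the rim, and MRPL3 is a relative of ribonuclease III enzymes. MRPL13 peaked with 369 RPKM (260 min), against its minimum of 58.3 RPKM (220 min), with a fitted range of 2.61 ± 0.41 (SE, limma adjusted p = 0.00439). MRPL3 had 172, 122, 49.7, 35.9, 37.3, 35.3, 44.1, 52.0, 47.5, 77.4, 140.0 and 163 RPKM over the course, the lowest mean level of the 41 genes, at 81.3 RPKM. Its level at 230 min was already above its levels from 60 to 220 min, and its levels at 0 and 260 min were close. The fitted range of MRPL3 was 2.50 ± 0.31 (SE, limma adjusted p = 0.00415). MRPL22 (uL22m), MRPL40 (uL24m) and MRPL15 (mL57) completed the 8, with fitted ranges of 2.00 to 2.71. For the genes of the tunnel and rim the median fitted range was 2.43, against 2.34 for all 41.

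Of the stalks, which guide transfer RNAs and translation factors on and off the ribosome, 3 genes were in the set, MRPL1 (uL1m), MRPL11 (uL10m) and MRPL19 (uL11m). MRPL1 (YDR116C, chromosome IV, 682724 to 683581) was the member closest to the others, with a correlation of 0.997 with their mean. It had 239, 202, 85.3, 78.8, 58.3, 59.0, 79.5, 68.2, 59.7, 77.4, 171 and 321 RPKM, with 260 min highest and 140 min lowest. Its fitted range was 2.40 ± 0.34 (SE, limma adjusted p = 0.00415). MRPL11 (YDL202W, chromosome IV, 98475 to 99224) peaked with 289 RPKM (260 min), against its minimum of 57.6 RPKM (140 min), and its fitted range was 2.23 ± 0.30 (SE, limma adjusted p = 0.00422). The fitted range of MRPL19 was 2.26, and the 3 ranges differed by less than the SE of any of them. MRPL19 overlaps the annotated gene YNL184C, and reads within the overlap of the pair cannot be told apart.

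The central protuberance, the crown of the subunit that faces the small subunit, was represented by MRPL7, MRPL36, MRPL35, MRPL28 and MRPL17. MRPL7 (YDR237W, chromosome IV, 936615 to 937493, uL5m) had the widest fitted range of the 41, at 3.06 ± 0.35 (SE, limma adjusted p = 0.00415). Its levels were 239, 189, 68.1, 53.8, 35.6, 42.7, 50.9, 56.2, 49.2, 58.6, 173 and 326 RPKM from 0 to 260 min. They were lowest at 140 min and were higher in each of the libraries at 0, 20, 240 and 260 min than in any other. At 260 against 140 min MRPL7 differed by 3.16 on the log2(RPKM + 1) scale, the most of any member. MRPL36 (YBR122C, chromosome II, 483970 to 484503, bL31m) peaked with 475 RPKM (260 min), against its minimum of 98.8 RPKM (140 min), with a fitted range of 2.20 ± 0.39 (SE, limma adjusted p = 0.00612). MRPL35 (YDR322W, chromosome IV, 1110589 to 1111692, mL38) had the second lowest mean level, 85.5 RPKM, and peaked with 187 RPKM (260 min), against its minimum of 34.1 RPKM (140 min). MRPL28 and MRPL17 (mL46) had fitted ranges of 1.97 to 2.17. Like MRP20, MRPL28 (mL40) was low at 220 min, at 60.0 RPKM, against 110.2 RPKM (210 min). The call of MRPL28 was lost without 230 min (limma adjusted p = 0.0513), 240 min (0.0517) or 260 min (0.0693) and with 3 degrees of freedom (0.0637).

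Among the other 12 relatives of bacterial proteins were the 3 genes with the highest levels. MRPL39 (YML009C, chromosome XIII, 251304 to 251516, bL33m), the shortest of the 41 at 213 bases, had a mean of 253 RPKM, MRPL23 (YOR150W, chromosome XV, 611999 to 612490, uL13m) had 227 RPKM and IMG1 (YCR046C, chromosome III, 209914 to 210423, bL19m), first known as a gene needed to keep the mitochondrial genome intact, had 227 RPKM. MRPL39 was at 491, 529, 188, 142, 102, 144, 137, 157, 118, 173, 316 and 535 RPKM over the 12 times. Its libraries at 0, 20 and 260 min lay close together. MRPL23 had 363, 506, 182, 161, 116, 111, 131, 126, 92.0, 99.1, 244 and 597 RPKM. Its high libraries were again 0, 20, 240 and 260 min, with 260 min on top, and 220 min was its lowest. IMG1 peaked with 526 RPKM (260 min), against its minimum of 97.4 RPKM (140 min). Fitted ranges were 2.25 ± 0.35 (SE, limma adjusted p = 0.00431) for MRPL39, 2.54 ± 0.45 (SE, limma adjusted p = 0.00627) for MRPL23 and 2.27 ± 0.35 (SE, limma adjusted p = 0.00439) for IMG1. The call of MRPL23 was lost without 260 min (limma adjusted p = 0.0509) and with 3 degrees of freedom (0.0507).

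MRPL49 (YJL096W, chromosome X, 246490 to 246975, bL21m) and MRPL33 (YMR286W, chromosome XIII, 841942 to 842202, uL30m) stood near opposite ends of the order of ranges. MRPL49 had 295, 300.2, 91.7, 86.8, 63.5, 62.5, 73.9, 69.8, 48.6, 81.2, 230.4 and 425 RPKM, with its lowest library at 220 min and its highest at 260 min. Its fitted range was 2.94 ± 0.44 (SE, limma adjusted p = 0.00428). MRPL33 had 266, 248, 114, 127, 97.2, 118, 108, 112, 94.3, 118, 232 and 255 RPKM, and its 4 high libraries lay close together while the 8 low ones varied little. Its fitted range, 1.44 ± 0.36 (SE, limma adjusted p = 0.0246), was the narrowest of the 41. The call of MRPL33 was lost with 3 degrees of freedom (limma adjusted p = 0.0979) and without any 1 of the libraries from 200 to 260 min (0.0507 to 0.0766). The other 7 of these relatives, MRPL6 (uL6m), MRPL8 (bL17m), MRPL10 (uL15m), MRPL24 (bL28m), MRPL32 (bL32m), MRPL38 (uL14m) and MRPL50 (bL9m), had fitted ranges of 2.09 to 2.55 and mean levels of 97.7 to 193 RPKM. The SEs of the 41 ranges were 0.29 to 0.46, and genes next to each other in the order of ranges lay within these errors.

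**Figure D2:**
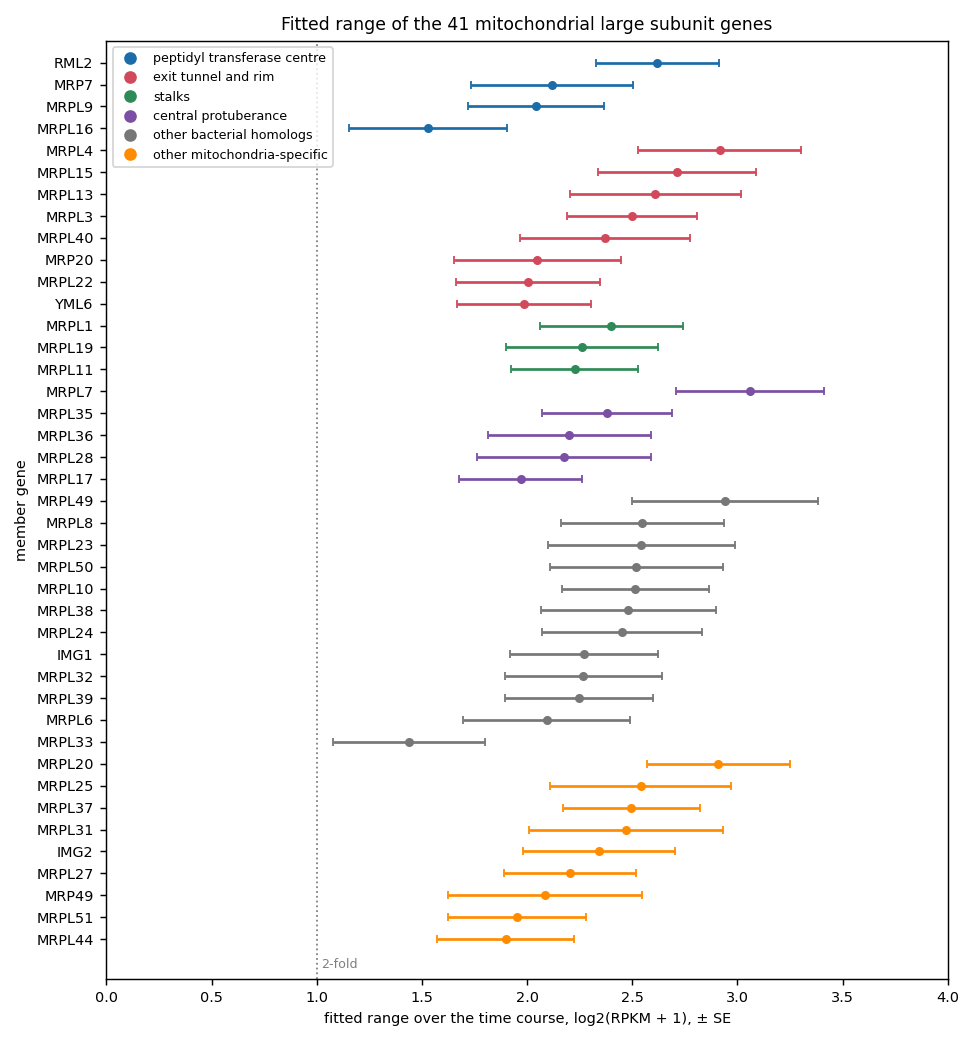
Fitted range over the time course (x axis, log2(RPKM + 1) scale, bars are the SE from limma) of each of the 41 genes (rows), coloured by place in the ribosome; the dotted line marks 2-fold. The points run from 1.44 for MRPL33 to 3.06 for MRPL7, and the groups of the ribosome overlap.

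Proteins special to mitochondrial ribosomes outside these places numbered 9. IMG2 (YCR071C, chromosome III, 240103 to 240543, mL49), like IMG1 needed to keep the mitochondrial genome, peaked with 368 RPKM (260 min), against its minimum of 67.1 RPKM (180 min), with a fitted range of 2.34 ± 0.36 (SE, limma adjusted p = 0.00433). MRPL44 (YMR225C, chromosome XIII, 720960 to 721403, mL53) was the third lowest in mean level, at 93.9 RPKM, and the third narrowest in fitted range, at 1.90 ± 0.33 (SE, limma adjusted p = 0.00439). MRP49 (YKL167C, chromosome XI, 133721 to 134134, mL61) had 195, 237, 116, 87.0, 91.6, 82.6, 83.1, 89.4, 46.7, 93.4, 203 and 274 RPKM over the 12 times. It was high at 0, 20, 240 and 260 min, and its level at 220 min lay well below all of its others. The step from 210 to 220 min was -0.92 on the log2(RPKM + 1) scale, the lowest of the members. The fitted range of MRP49 was 2.09 ± 0.46 (SE, limma adjusted p = 0.0246), and the call was lost without 210 min (limma adjusted p = 0.0558), 230 min (0.0829), 240 min (0.0645) or 260 min (0.0785) and with 3 degrees of freedom (0.11). MRPL20 (mL58) had the widest range of these 9 genes, 2.91 ± 0.34 (SE, limma adjusted p = 0.00415), with its high libraries at 0, 20, 240 and 260 min and 315 RPKM (260 min), against 42.4 RPKM (140 min). MRPL25 (mL59), MRPL27 (mL41), MRPL31 (mL60), MRPL37 (mL54) and MRPL51 (mL43) had fitted ranges of 1.95 to 2.54. By class, the 26 relatives of bacterial proteins had a median fitted range of 2.27 and the 15 mitochondria-specific proteins one of 2.38, with ranges of 1.44 to 3.06 and 1.90 to 2.91. MRPL51 overlaps the annotated gene YPR099C.

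**Figure D3:**
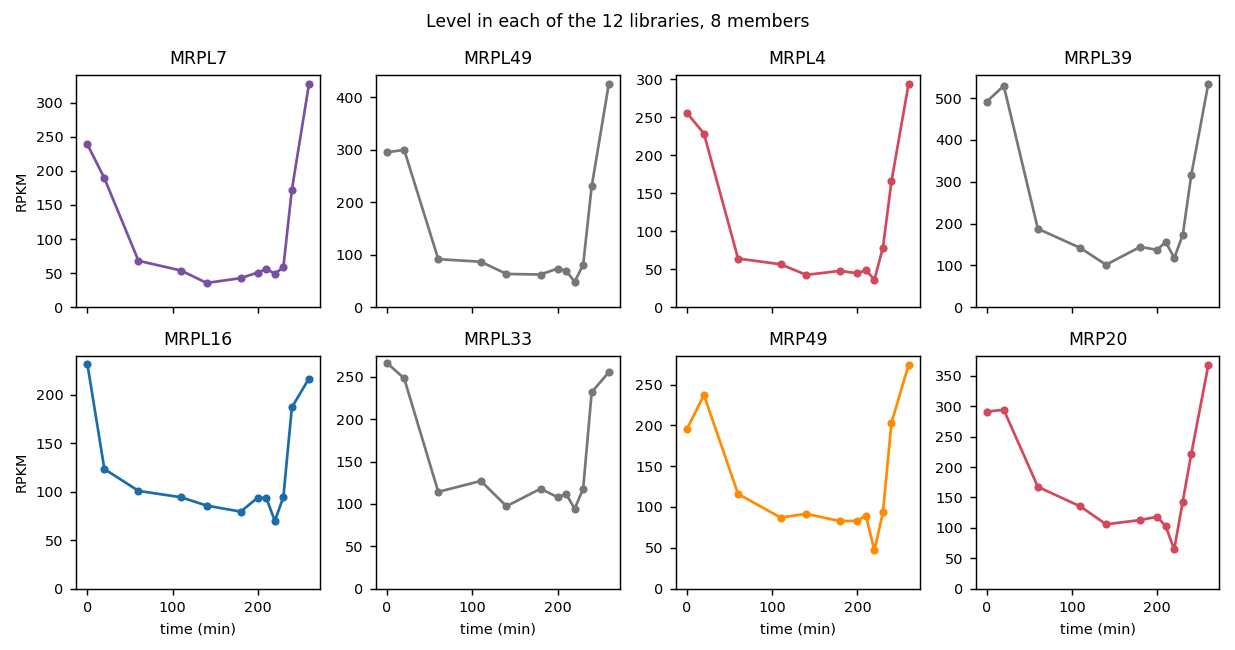
Level in RPKM (y axis, from 0, a scale per panel) of 8 members in each of the 12 libraries (x axis, min), 1 point per library, coloured by place in the ribosome. MRPL7, MRPL49 and MRPL4 have the widest fitted ranges and MRPL39 the highest level, while MRPL16 and MRPL33 have the narrowest ranges. MRPL7 and MRPL39 are lowest at 140 min, and all the others shown, MRP49 and MRP20 among them, at 220 min.

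The median steps between neighbouring libraries were largest from 20 to 60 min and from 230 to 260 min. These steps have no test, and a step counts as 2-fold where the later library differs from the earlier by at least 1 on the log2(RPKM + 1) scale. From 20 to 60 min all 41 genes were lower at 60 min, 33 of them at least 2-fold, against 3.79% of all genes tested. The median member differed by -1.23 at that step and the median of all genes by 0.27. MRPL4 had the largest drop, -1.82, and MRPL16 the smallest, -0.29. From 60 to 140 min the genes went on to lower levels in smaller steps: 35 were lower at 110 than at 60 min (median -0.17) and 39 lower at 140 than at 110 min (median -0.38), with 0 of 41 past 2-fold at either step, against 1.29% and 1.6% of all genes. The steps of 180 against 140 min, 200 against 180 min and 210 against 200 min had medians of 0.08, 0.24 and -0.01, with 0 of 41 past 2-fold at any of them. Of all genes 1.06%, 0.385% and 2.06% were 2-fold higher at these steps, and 0.801%, 0.57% and 0.662% 2-fold lower.

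The climb came late in the course. From 230 to 240 min all 41 genes were higher at 240 min, 29 of them at least 2-fold, against 9.83% of all genes higher and 5.22% lower. The median member differed by 1.20 and the median of all genes by 0.13; MRPL31 had the largest step, 1.64, and MRP20 the smallest, 0.63. At 260 against 240 min all 41 were higher again, with a median of 0.76, while the median of all genes was -0.29. At this step 8 of 41 were at least 2-fold higher, against 11.9% of all genes. That count depended on the scaling of the libraries: it was 28 of 41 with median-ratio scaling, where 17.8% of all genes were. With quantile normalization it was 6 of 41, where 17.1% of all genes were. MRPL23 had the largest step, 1.29, and MRPL33 the smallest, 0.14. At 260 against 140 min all 41 were at least 2-fold higher, against 7.48% of all genes, with a median difference of 2.28 and values from 1.33 (MRPL16) to 3.16 (MRPL7). An earlier look at these data had given these times as the extremes of the mean of mitochondrial ribosomal proteins. The pair was chosen for that, so this count describes the genes and is no test. At 260 min 25.1% of all genes were at least 2-fold lower than at 240 min, and 0 of the 41 were among them.

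**Figure D4:**
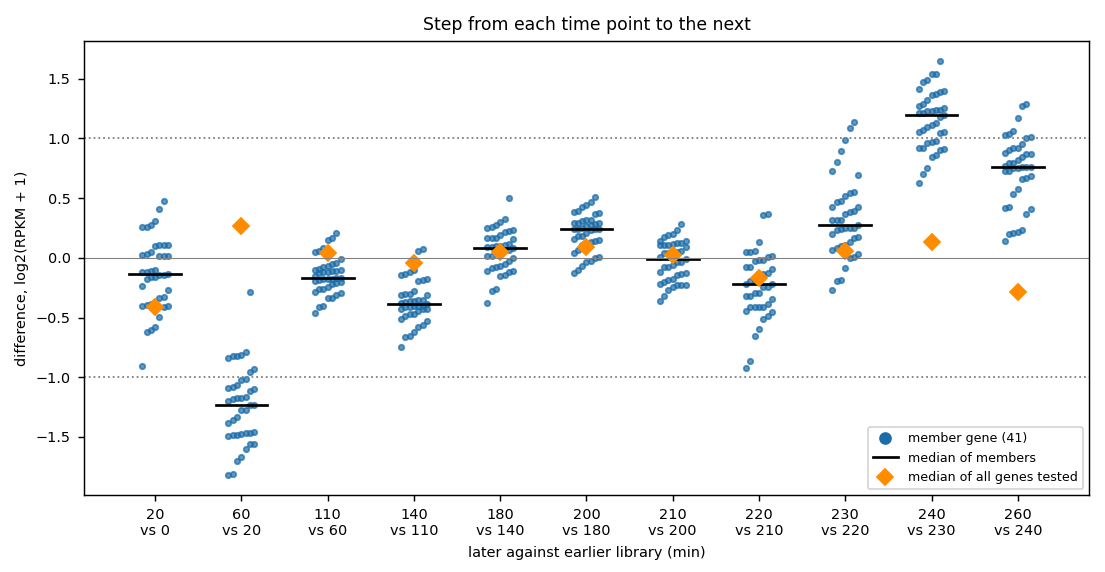
Difference on the log2(RPKM + 1) scale (y axis) between each library and the one before it (x axis, later against earlier time in min) for the 41 genes (blue points), with their median (black bar) and the median of all genes tested (orange diamond); dotted lines mark 2-fold. All 41 points lie below 0 at 60 against 20 min and above 0 at 240 against 230 min and at 260 against 240 min.

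The lowest library was not the same in all members. Members were lowest at 140 min in 19 cases, at 220 min in 16, at 180 min in 5 and at 230 min in 1. With median-ratio scaling the counts were 13 at 140 min, 10 at 220 min and 8 at 180 min, with the others spread over 200, 210 and 230 min. With quantile normalization 220 min came ahead, with 21 members, against 6 at 140 min and 6 at 180 min, so the order of the low libraries depended on the scaling. At 220 against 140 min 17 were lower and 24 higher. At 220 against 210 min 33 of 41 were lower, with a median of -0.22 and a median of all genes of -0.17, and values ran from -0.92 for MRP49 and -0.87 for MRPL28 to 0.37 for MRPL37. At this step 0 of 41 passed 2-fold, against 6.56% of all genes higher and 14.6% lower. At 230 against 220 min 2 members, MRP20 and MRPL4, were at least 2-fold higher, against 7.45% of all genes, and 0 were 2-fold lower, against 6.53%. The direction at 220 against 210 min turned with median-ratio scaling, which shifts values by 0.24 there: 21 of the 41 were higher at 220 min and the median was 0.02. With quantile normalization it did not turn: 14 were higher and the median was -0.16.

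At the ends of the course, 38 members had their highest library at 260 min, where 1028 of all 6493 genes tested had theirs. All 38 passed the test, and 4.87% of all genes tested both passed and were highest at 260 min. The other 3 members, MRPL3, MRPL16 and MRPL33, were highest at 0 min. The 3 differed by 0.06 to 0.10 between 0 and 260 min on the log2(RPKM + 1) scale. At 0 against 260 min the median member differed by -0.37 and the median of all genes by 0.25. At this pair of times 0 of 41 passed 2-fold, against 17.0% of all genes higher and 5.3% lower. With median-ratio scaling 37 members were highest at 260 min and 4 at 20 min, and none at 0 min; with quantile normalization the counts were 35 at 260 min, 4 at 20 min and 2 at 0 min. At 20 against 0 min 16 members were higher and 25 lower, with a median of -0.14 where the median of all genes was -0.41, and 0 of 41 passed 2-fold, against 5.17% of all genes higher and 19.7% lower. This direction turned with the scaling: 35 of 41 were higher at 20 than at 0 min after median-ratio scaling, which shifts values by 0.41 at that step, and 27 after quantile normalization. Across the 41 genes the difference of 20 against 0 min was more negative in longer genes (Pearson r = -0.44 with log2 length, against -0.16 over 5850 genes tested and matched). This correlation was computed for every pair of times compared here, and the value printed was picked as the largest in size among the members. At the other pairs the members had r from -0.10 (110 against 60 min) to 0.31 (200 against 180 min). The mean log2(RPKM + 1) level of the members was also lower in longer genes (r = -0.54, against -0.21). These are correlations across genes that share libraries, and genes are not replicates.

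The members ran closely together. Of 820 pairs, the median correlation over the 12 libraries was 0.963, the lowest 0.802 (MRPL3 and MRPL6) and the highest 0.995 (MRPL1 and MRPL10). All pairs share the same libraries and the same large contrast between 4 and 8 of them. The 41 genes are spread over 13 chromosomes, with 6 each on IV, XIII and XIV, and 2 overlap another annotated gene.

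Genes of the same ribosome outside the naming rule were high in the same libraries. The other large subunit proteins were MNP1 (bL12m, of the factor-binding stalk), RTC6 (bL36m), MRX14 (bL34m) and MHR1 (mL67, also known for recombination of mitochondrial DNA). All 4 varied, with a median fitted range of 2.66, and all 4 had the libraries at 0, 20, 240 and 260 min above the 8 others. MNP1 was at 736 RPKM (260 min) and 98.0 RPKM (140 min), with a fitted range of 2.84 ± 0.33 (SE, limma adjusted p = 0.00415). MRX14 was at 602 RPKM (260 min) and 67.2 RPKM (220 min), with a fitted range of 2.91 ± 0.45 (SE, limma adjusted p = 0.00424). RTC6 was at 416.5 RPKM (260 min) and 85.9 RPKM (220 min), with a fitted range of 2.21 ± 0.38 (SE, limma adjusted p = 0.00439), and MHR1 at 344 RPKM (260 min) and 40.0 RPKM (140 min), with a fitted range of 2.49 ± 0.37 (SE, limma adjusted p = 0.00477). The levels of all 4 were highest at 260 min. Of 31 genes of the small subunit, 30 varied, with a median fitted range of 2.31, and 30 had the same 4 libraries above the 8 others. RSM26 had the widest range there (3.01 ± 0.36, SE, limma adjusted p = 0.00415). The exception to both counts was RSM22, a methyltransferase-like protein (fitted range 0.85 ± 0.36, SE, limma adjusted p = 0.279). Its maximum was 52.9 RPKM (240 min) and its minimum 20.3 RPKM (140 min). Not passing the test thus does not mean a steady level. Whether the small and large subunits differ was not tested.

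Other parts of mitochondrial translation varied to different degrees. All 14 mitochondrial aminoacyl-tRNA synthetases passed, with a median fitted range of 2.12, and all 14 had the libraries at 0, 20, 240 and 260 min on top. The widest range was that of MSF1, for phenylalanine (3.43 ± 0.47, SE, limma adjusted p = 0.00415), and the narrowest that of MSR1, for arginine (1.31 ± 0.31, SE, limma adjusted p = 0.028). Of 12 genes for translation factors, formylation of the initiator tRNA and the amidotransferase 9 passed, MEF1, elongation factor G of mitochondria, being the widest (2.87 ± 0.31, SE, limma adjusted p = 0.00415). GTF1, a subunit of the amidotransferase that makes glutaminyl-tRNA, lay between 69.5 RPKM (240 min) and 101 RPKM (200 min), with a fitted range of 0.31 ± 0.22 (SE, limma adjusted p = 0.749). Of 9 genes for assembly of mitochondrial ribosomes 4 passed, with a median fitted range of 1.25, near the 1.10 of all genes. MAM33, a matrix protein, was at 721 RPKM (260 min) and 67.7 RPKM (220 min), with a fitted range of 3.21 ± 0.49 (SE, limma adjusted p = 0.00428), while MTG1, a GTPase for the large subunit, lay between 37.5 RPKM (220 min) and 72.3 RPKM (0 min), with a fitted range of 0.47 ± 0.33 (SE, limma adjusted p = 0.694). PUF3 encodes an RNA-binding protein known to bind messages of mitochondrial ribosomal proteins. It was at 74.7 RPKM (260 min) and 28.5 RPKM (140 min), with a fitted range of 1.39 ± 0.24 (SE, limma adjusted p = 0.00977), and passed the test.

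Respiratory complexes, some of which have core subunits made by mitochondrial ribosomes, and the cytosolic ribosome were described in the same way. Differences between lists were not tested. Of 33 nuclear genes for respiratory complexes and ATP synthase, 0 passed in limma after adjustment and 2 had an unadjusted p under 0.05. Of the 33, 2 had the libraries at 0, 20, 240 and 260 min above the 8 others. The highest library was 0, 20, 240 or 260 min in 31 of them, most often 0 min (24 genes), and the lowest was most often 220 min (30 genes). The correlation of their mean with that of the 41 members was 0.58 over the 12 libraries, which both share. SDH1, of succinate dehydrogenase, had the widest fitted range (1.77 ± 0.65, SE, limma adjusted p = 0.143) and COX5A, of cytochrome oxidase, the narrowest (0.51 ± 0.74, SE, limma adjusted p = 0.941). COX5A still lay between 399 RPKM (20 min) and 1452 RPKM (240 min), so its small fitted range does not mean a steady level. The mean of the 33 genes spanned 1.74 on the log2(RPKM + 1) scale between its highest and lowest libraries, against 2.24 for the 41 members. Of 81 cytosolic large subunit genes 14 passed, 17.3% against 20.7% of all genes, with 75 highest at 230 min and 54 genes lowest at 260 min. Before adjustment 68 of the 81 had a limma p under 0.05, against 2651 of all 6493 genes tested. Their median fitted range was 2.35, against 1.10 for all genes tested, so the low share passing does not mean steady levels. RPL13A, with the widest range (4.03 ± 0.81, SE, limma adjusted p = 0.0234), was at 34.5 RPKM (260 min) and 932 RPKM (230 min). All 30 assembly factors of the cytosolic large subunit passed, 29 with their highest level at 220 min and 26 with their lowest at 260 min. MAK16 was the widest among them (6.62 ± 0.94, SE, limma adjusted p = 0.00422) and TIF6 the narrowest (1.90 ± 0.46, SE, limma adjusted p = 0.0261). Among these 81 and 30 cytosolic genes 0 were highest at 260 min, where 38 of the 41 mitochondrial large subunit genes and 1028 of all genes tested were.

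**Figure D5:**
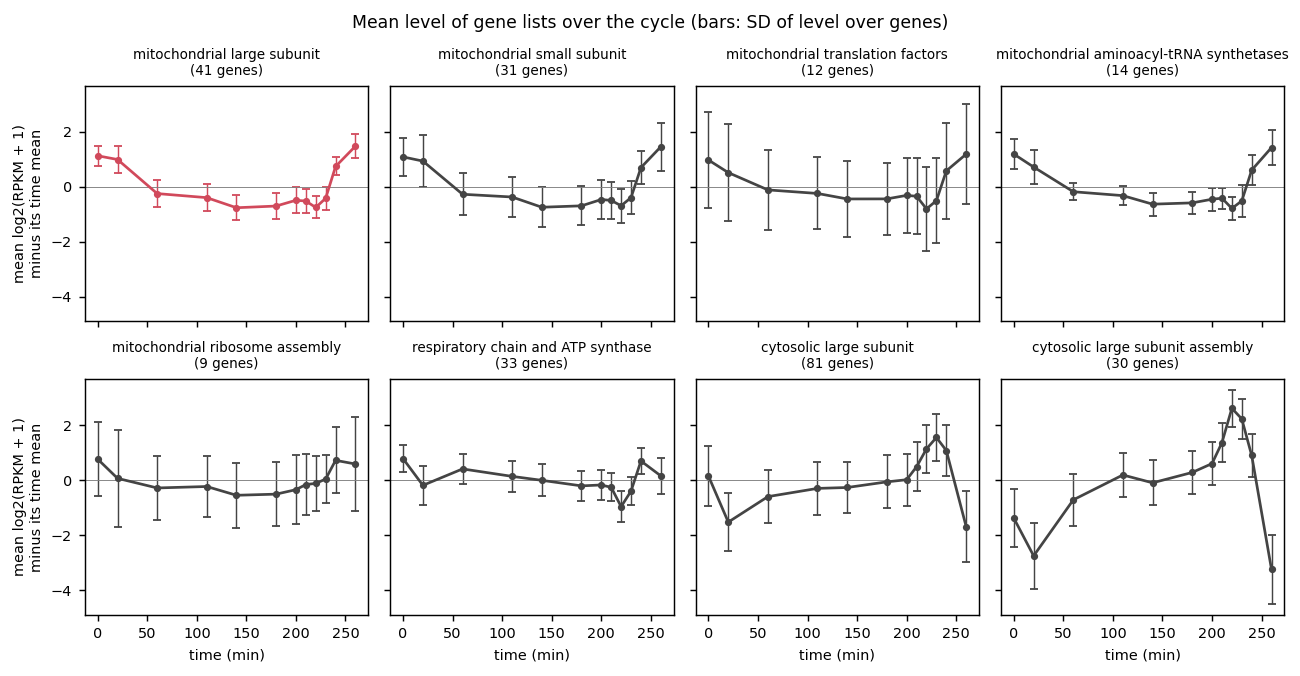
Mean level of each gene list over time (x axis, min; y axis, mean log2(RPKM + 1) minus its mean over the 12 libraries; bars are the SD of the level over the genes of the list), mitochondrial large subunit in red and 7 other lists in dark grey. The mitochondrial large subunit mean is highest at 260 min and lowest at 140 min, while the cytosolic large subunit mean is highest at 230 min and lowest at 260 min.

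The genes most like the mitochondrial large subunit were sought among 5938 other genes averaging 10 RPKM or more, by correlation with the mean of the 41 over the 12 libraries. The 10 highest were MRP13, MEF1, NAM9, RSM23, CBP3, BCS1, MRP1, MRP21, MRP51 and MAM33, with r between 0.991 and 0.996, and 6 of them were small subunit genes. CBP3 and BCS1 are assembly factors of the cytochrome bc1 complex, and CBP3 binds the mitochondrial ribosome. Among the 50 highest, 19 were small subunit genes. The median r was 0.981 over the 31 small subunit genes and -0.060 over all genes compared. CBP3 was at 275 RPKM (260 min) and 55.2 RPKM (140 min), with a fitted range of 2.25 ± 0.27 (SE, limma adjusted p = 0.00415), and BCS1 at 133 RPKM (260 min) and 25.6 RPKM (220 min), with a fitted range of 2.27 ± 0.35 (SE, limma adjusted p = 0.00433).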

How the data were processed

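The analysis used 12 RNA-seq libraries, 1 per time point, and 12 MNase-seq samples of the same times were not analysed here. Per the submitters' processing notes, reads were aligned with Bowtie2 to build R64. The authors deposited a table whose header calls its values RKPM. From the values alone they were read as a coverage signal per kilobase scaled to library size, since signal times kilobases summed to 41500000 to 44800000 per library. Of 1345 low values 324 came, rounded to the nearest whole base, to 50, 100, 150 or 200 bases, and the others did not. On this partial evidence the signal the authors deposited was divided by an assumed read length of 50 bases and is called RPKM; RPKM levels and estimated read numbers rest on that assumption, and all 41 members also passed without the division. A second table the authors deposited gives each gene as a fraction of its maximum and served in 1 alternative, chosen after seeing the data. Depth was estimated from the smallest steps between low values, within a preset window of depths. The match to these steps scored 0.352 to 0.488, where an exact match scores 1, so depths and read numbers are rough. Names were matched for 5891 of 6562 genes, by RefSeq tables of build R64, and 671 had no match. The library kit, per the labels, does not mark strand, so genes that overlap on opposite strands cannot be told apart. Reads within an overlap of genes on the same strand cannot be told apart either.

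Values were taken as log2(RPKM + 1), and 6493 genes averaging at least 1 RPKM were fitted in limma 3.58.1 (R 4.3.3): a moderated F-test of a natural cubic spline (4 degrees of freedom, time in minutes), 7 residual degrees of freedom, Benjamini-Hochberg adjustment over all genes and a threshold of 0.05. Steps between libraries were counted at 2-fold, with no test. Alternatives were the pseudocount, the filter, the curve, the scaling, the division by read length and leaving out each library. Members named singly were the 3 with the widest and the 3 with the narrowest ranges, the 3 highest and the 3 lowest in mean level, those not highest at the commonest time, the one least like the others, and 14 fixed by their roles; MRPL9, MRPL19, MRPL20, MRPL28 and others were added after their values were seen. The members and lists, and the pair of 260 and 140 min, were chosen with earlier results of these data known. Sequence was not analysed here.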

Additional observations from a re-analysis of the deposited data

How the results depend on the processing

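All 41 members passed the test of variation over time with a pseudocount of 0.1 or 5 RPKM, with no filter or a mean of at least 10 RPKM, with 5 degrees of freedom, with the order of the time points as the time axis, with median-ratio or quantile scaling, and with the deposited values undivided. With 3 degrees of freedom 29 passed, with 2 harmonics 39 and with the deposited fractions 40. Leaving out 1 library gave 29 to 41. At 20 against 0 min 35 members were higher with median-ratio scaling and 27 with quantile normalization, against 16 as reported. At 220 against 210 min 21 were higher with median-ratio scaling and 14 with quantile normalization, against 8 as reported. The number of members at least 2-fold higher at 260 against 240 min was 28 with median-ratio scaling and 6 with quantile normalization, against 8 as reported. The cause was not tested. Over all genes the number called was 1343 as reported, 145 with 3 and 2589 with 5 degrees of freedom, 2657 with time point order, and 277 to 3309 when 1 library was left out. No paired analysis was possible because each time point has 1 library. Each value rests on 1 culture sample, and depth, estimated rather than given, sets 1 read per kilobase at 0.168 to 0.229 RPKM, well below the lowest member value of 34.1 RPKM.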
